A study of Homo sapiens with 4 samples.

Results

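The BCL2 family decides whether a cell keeps its mitochondria intact or commits to apoptosis. Anti-apoptotic members hold the pore-forming members BAX and BAK1 in check, and BH3-only members release that hold or activate the pore formers directly. Acute myeloid leukaemia cells lean on this balance for survival, and BCL2 is the target of venetoclax, a BH3-mimetic drug used in this disease. The genes were taken by name, 4 anti-apoptotic (BCL2, MCL1, BCL2L1 and BCL2A1) and 6 pro-apoptotic (BCL2L11, BAX, BAK1, BBC3, PMAIP1 and BID), out of 20037 protein-coding genes, and all 10 were found in the RefSeq gene table of GRCh38.p14.

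H3K27 acetylation (H3K27ac), which marks promoters and enhancers in use, was profiled by ChIP-seq in MOLM13, an established human AML line that carries an MLL-AF9 fusion. Cells of the combination received 500 nM SNDX-50469, an inhibitor of the Menin-MLL interaction, together with 500 nM of the BET inhibitor OTX015, and the cells they are set against received 500 nM OTX015 alone, each for 16 hours. Every cell therefore received OTX015, cells without drug or with SNDX-50469 alone were not analysed here, and each treatment is 1 ChIP library of 1 line, so no difference below has a replicate check and none was tested. The 2 peak lists hold 86207 peaks for the combination and 55852 for OTX015.

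The locus of a gene is its body with 10 kb either side, and cover is the length of a locus that lies under peaks. Peaks are compared by enrichment, a mean and not a height, which depends on the peak's width and the list's threshold. It is the mean pileup of a peak over the background of its own library. That background, solved from the weakest peaks, was 1.47 fragments per base with the combination and 0.764 with OTX015, a ratio of 1.92, so the combination library was the deeper and its weakest peaks stood at 4.76 times background, against 6.54 times with OTX015. More weak peaks can thus be listed with the combination, and a locus with no peak is below the list's threshold, not shown to lack the mark. As a check of the line, all 8 myeloid marker loci, among them SPI1, MPO and FLT3, had cover with OTX015 and 7 with the combination (all but MEIS1), while none of 4 erythroid marker loci had cover in either list. Of 4 T-cell marker loci, CD3D alone had cover, in both lists, and of 4 B-cell marker loci 3 had cover with the combination and 1 with OTX015. Against the check, 2 of 4 marker loci of tissues outside blood had cover in each list, 6.19 kb with the combination and 1.63 kb with OTX015, most of it at SFTPC. Signal strength per cell and the share of cells or alleles that carry the mark cannot be told apart in such lists.

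The members' start sites show how close the marks came to the promoters. RefSeq start-site windows, with 250 bases before and 50 after each start on GRCh38.p14, were matched for 9 of the 10 members, 14 windows in all. MCL1 had no matched window. Peaks reached 2 of these windows with the combination and 5 with OTX015, all of them at BID or BCL2. Several windows are alternative starts of BID that overlap one another, so the same BID peak is counted more than once. By gene, combination peaks reached BID only, and OTX015 peaks BID and BCL2. The share of all such windows that peaks reach is not given here, so these counts cannot be called particular to the members. Within 1 kb of the 5′ end, 15.3% of genes had a peak with the combination and 14.9% with OTX015. BID encodes a BH3-only protein that caspase-8 cleaves to link death receptors to mitochondria, and the window shown, chr22:17773934-17774233 on the minus strand, lay under peaks of both lists. Its last 69 bases, in capitals, were under the combination peak, and all 300 were under the OTX015 peak.
BID: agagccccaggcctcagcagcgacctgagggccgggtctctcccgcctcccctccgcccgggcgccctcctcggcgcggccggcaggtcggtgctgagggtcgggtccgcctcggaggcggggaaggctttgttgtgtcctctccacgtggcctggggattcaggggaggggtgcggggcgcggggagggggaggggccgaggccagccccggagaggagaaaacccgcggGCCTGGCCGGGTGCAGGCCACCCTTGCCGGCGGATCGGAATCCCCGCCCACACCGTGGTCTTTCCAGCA
The window of BCL2, chr18:63319720-63320019 on the minus strand, is shown because OTX015 alone had a peak that reached it. The 9 capital bases at its end were under that peak, and the nearest combination peak lay 32513 bp away.
BCL2: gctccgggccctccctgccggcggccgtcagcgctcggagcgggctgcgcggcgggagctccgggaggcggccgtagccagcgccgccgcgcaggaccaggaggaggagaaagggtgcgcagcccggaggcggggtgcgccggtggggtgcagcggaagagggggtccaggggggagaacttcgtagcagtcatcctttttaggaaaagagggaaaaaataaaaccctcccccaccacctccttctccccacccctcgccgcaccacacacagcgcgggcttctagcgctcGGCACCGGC
The windows of BAX, chr19:48954625-48954924 on the plus strand, and of BBC3, chr19:47232618-47232917 on the minus strand, were just missed by peaks. At BAX the nearest peak began 172 bp beyond the window with the combination and 149 bp beyond it with OTX015. At BBC3 the gap was 949 bp with the combination and 4 bp with OTX015. Capitals in these windows mark CACGTG, the E-box letters that MYC with MAX can bind.
BAX: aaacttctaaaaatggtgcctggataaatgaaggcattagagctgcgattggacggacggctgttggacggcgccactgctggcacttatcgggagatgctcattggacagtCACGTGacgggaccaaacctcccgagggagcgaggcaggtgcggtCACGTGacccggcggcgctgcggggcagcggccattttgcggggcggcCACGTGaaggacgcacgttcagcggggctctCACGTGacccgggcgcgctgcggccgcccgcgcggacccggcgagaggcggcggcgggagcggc
BBC3: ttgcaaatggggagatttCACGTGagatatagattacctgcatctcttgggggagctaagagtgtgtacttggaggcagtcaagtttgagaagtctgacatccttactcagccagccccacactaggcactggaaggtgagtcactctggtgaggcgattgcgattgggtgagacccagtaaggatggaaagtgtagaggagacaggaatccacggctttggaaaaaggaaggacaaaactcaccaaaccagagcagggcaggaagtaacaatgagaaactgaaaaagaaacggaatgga

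The letters of the windows differed between members. CACGTG, which reads the same on both strands, stood 4 times in the BAX window, and 0.0225% of 22199 windows of the same length from protein-coding genes held at least 4 copies. At least 1 copy was in 8.34% of windows, BBC3 and BID among them. The GC box GGGCGG, searched on both strands, was in 56.3% of windows. It had 4 copies at PMAIP1 and in an overlapping pair of BID windows, and 3 at BCL2L11. None was in the windows of BCL2, BCL2A1 or BBC3, nor in 1 window each of BCL2L1 and BID. The BCL2A1 window was the poorest of the members in G and C, at 41.0% with 2 CpG, against a median of 62.3% and 21 CpG over all windows. Those of PMAIP1 (71.3% and 42 CpG) and BCL2L11 (74.7% and 39 CpG) were rich in both, and no peak of either list lay in them. A match of letters is a description and not a bound site.

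Over all members, cover was somewhat longer with the combination, but the excess was uneven. The 10 loci had 19.3 kb under 39 peaks with the combination and 15.02 kb under 28 peaks with OTX015. Cover was present at 9 members with the combination, where 53.4% of all protein-coding loci had it, and at 8 with OTX015, where 50.6% had it. The combination covered 6 members more (38.7% of all loci, 59.3% of loci with cover) and 4 less (26.6% and 40.7%). All 10 members had cover in at least 1 list, so the shares of loci with cover are the like ones, and the counts were near them. Only BCL2A1 was covered at least 2-fold and 1 kb more, a size that 9.11% of all loci reached, and no member was covered less by that size, which 2.9% of all loci were. The median difference, combination minus OTX015, was 0.164 kb over the members and 0.134 kb over all loci with cover.

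**Figure D1:**
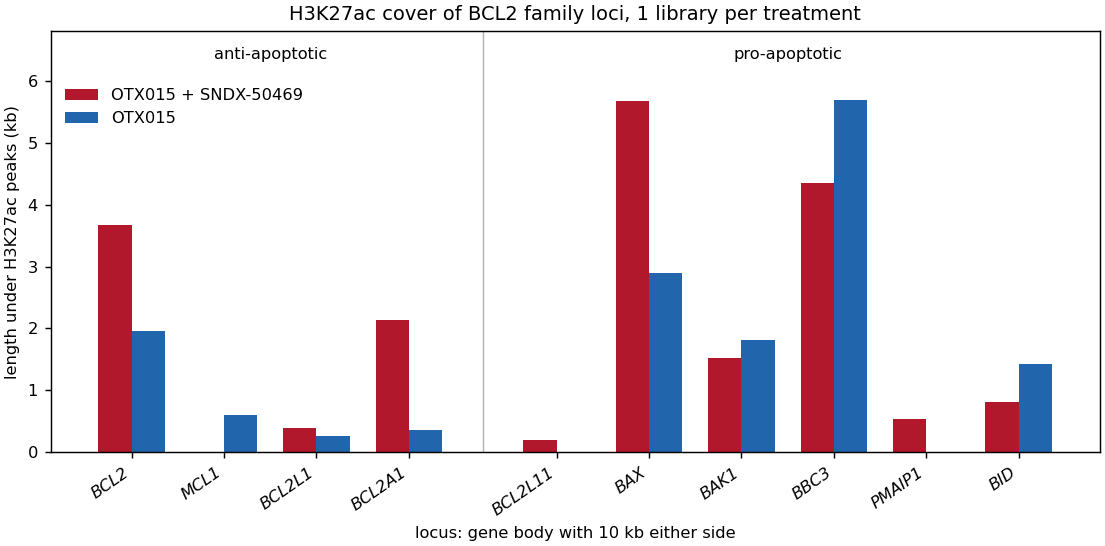
Length of each locus (gene body with 10 kb either side) under H3K27ac peaks, in kb, for the combination (red, left bar) and OTX015 (blue, right bar), 1 library each, with the anti-apoptotic genes left of the line. BAX and BBC3 carry the longest cover in both libraries, MCL1 has a bar for OTX015 only, and BCL2L11 and PMAIP1 for the combination only.

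BCL2, whose protein binds and restrains the pore formers and BH3-only proteins, had longer cover with the combination, but away from its promoter. The 216.7 kb locus on chromosome 18 held 3.67 kb in 9 peaks with the combination and 1.95 kb in 5 peaks with OTX015, and not 1 base was under peaks of both. With the combination all 9 peaks lay inside the gene body, 7 of them between 133 and 177 kb from the 5′ end, with 3.10 kb of the cover. The nearest to the 5′ end was centred 33.0 kb from it. With OTX015 the strongest peak, 1103 bp wide at chr18:63318626-63319728, lay at the start of the gene, with its centre 0.913 kb inside the 5′ end and an enrichment of 7.46. Within 10 kb of the 5′ end BCL2 thus had no cover with the combination and 1.24 kb with OTX015, the opposite direction to the whole locus. The widest combination peak of the locus, 1254 bp at chr18:63142124-63143377, was among the weak ones, at 4.80 times background. All 9 combination peaks stood below 6.54 times background, the lowest of the OTX015 list. The part of depth in the gain was not tested.

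MCL1, a short-lived survival protein on which many AML cells depend, was the one member with cover in the OTX015 list alone. Its locus on chromosome 1 had no peak with the combination and 0.603 kb with OTX015, in peaks of 116 and 487 bp centred 1.16 kb inside the 5′ end and at −2.09 kb, before it. Both stood at the lowest value of the OTX015 list, 6.54 times background. BCL2L1, which encodes BCL-XL, had 1 peak in each list, 399 bp with the combination and 267 bp with OTX015, deep in the gene at 49.1 and 59.3 kb from the 5′ end, with no shared base. At neither gene did a peak of either list come within 1 kb of the 5′ end.

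BCL2A1, an NF-kB-responsive survival gene of blood cells, showed the largest relative gain among members covered in both lists. Its locus on chromosome 15 held 2.14 kb with the combination and 0.357 kb with OTX015, a ratio of 5.98. Most of the gain was 1 region upstream of the gene. There a combination peak of 1832 bp, chr15:79977398-79979229, enclosed an OTX015 peak of 219 bp, chr15:79978114-79978332, the centres of which lay at −7.12 and −7.03 kb from the 5′ end. The combination peak was wider, with a mean enrichment of 5.66 times background, against 8.16 times for the OTX015 peak. These are means over unlike widths and do not give the signal at the shared bases. The surrounding 10 Mb was covered to 0.505% with the combination and 0.598% with OTX015. Every combination peak of the locus stood below 6.54 times background, the lowest of the OTX015 list. At a common enrichment over background the difference was −0.357 kb. The parts of depth and of the surroundings in the gain were not tested.

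BAX, which forms pores in the outer mitochondrial membrane, had the largest gain in kb of the 10 genes. Its locus on chromosome 19 held 5.67 kb in 9 peaks with the combination and 2.89 kb in 3 peaks with OTX015. All 3 OTX015 peaks met a combination peak, and 2.82 kb was under peaks of both lists. At the 5′ end the peak was 575 bp wide with the combination and 147 bp with OTX015. At the 3′ end the pair chr19:48960740-48962627 (1888 bp) and chr19:48963381-48965007 (1627 bp) with the combination matched chr19:48961477-48962612 (1136 bp) and chr19:48963329-48964938 (1610 bp) with OTX015. Their enrichments were 6.10 and 6.59 with the combination, against 8.29 and 9.46 with OTX015. These peaks end just before FTL, the ferritin light chain gene, whose RefSeq record starts at base 48965309, so the downstream pair cannot be given to BAX alone. Of the other combination peaks, those of 555 and 112 bp lay in GYS1. Without the bodies of other protein-coding genes BAX had 5.01 kb with the combination and 2.89 kb with OTX015. Of the combination peaks at BAX, only the 1627 bp one reached 6.54 times background, the lowest of the OTX015 list. The part of depth in the gain was not tested.

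BBC3, the BH3-only gene that encodes PUMA, carried the widest peak of the family, and it was the same region in both lists. This peak spanned 2872 bp with the combination, chr19:47226500-47229371, and 2982 bp with OTX015, chr19:47226457-47229438, and the combination peak lay wholly inside the OTX015 one. It was centred 4.92 kb inside the 5′ end with the combination and 4.91 kb inside it with OTX015. Its enrichment was 6.41 with the combination and 9.51 with OTX015, and by −log10 p it passed 98.3% of combination peaks and 98.5% of OTX015 peaks. No other peak of the locus overlapped between lists. A 5′-end peak of 241 bp, a 153 bp peak at the 3′ end, a 1363 bp peak beyond it and upstream peaks of 832 and 126 bp were listed with OTX015 only, and 6 peaks of 111 to 490 bp with the combination only. In sum BBC3 had 4.35 kb with the combination and 5.70 kb with OTX015, while the gene body alone had 3.58 kb with the combination and 3.32 kb with OTX015.

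**Figure D2:**
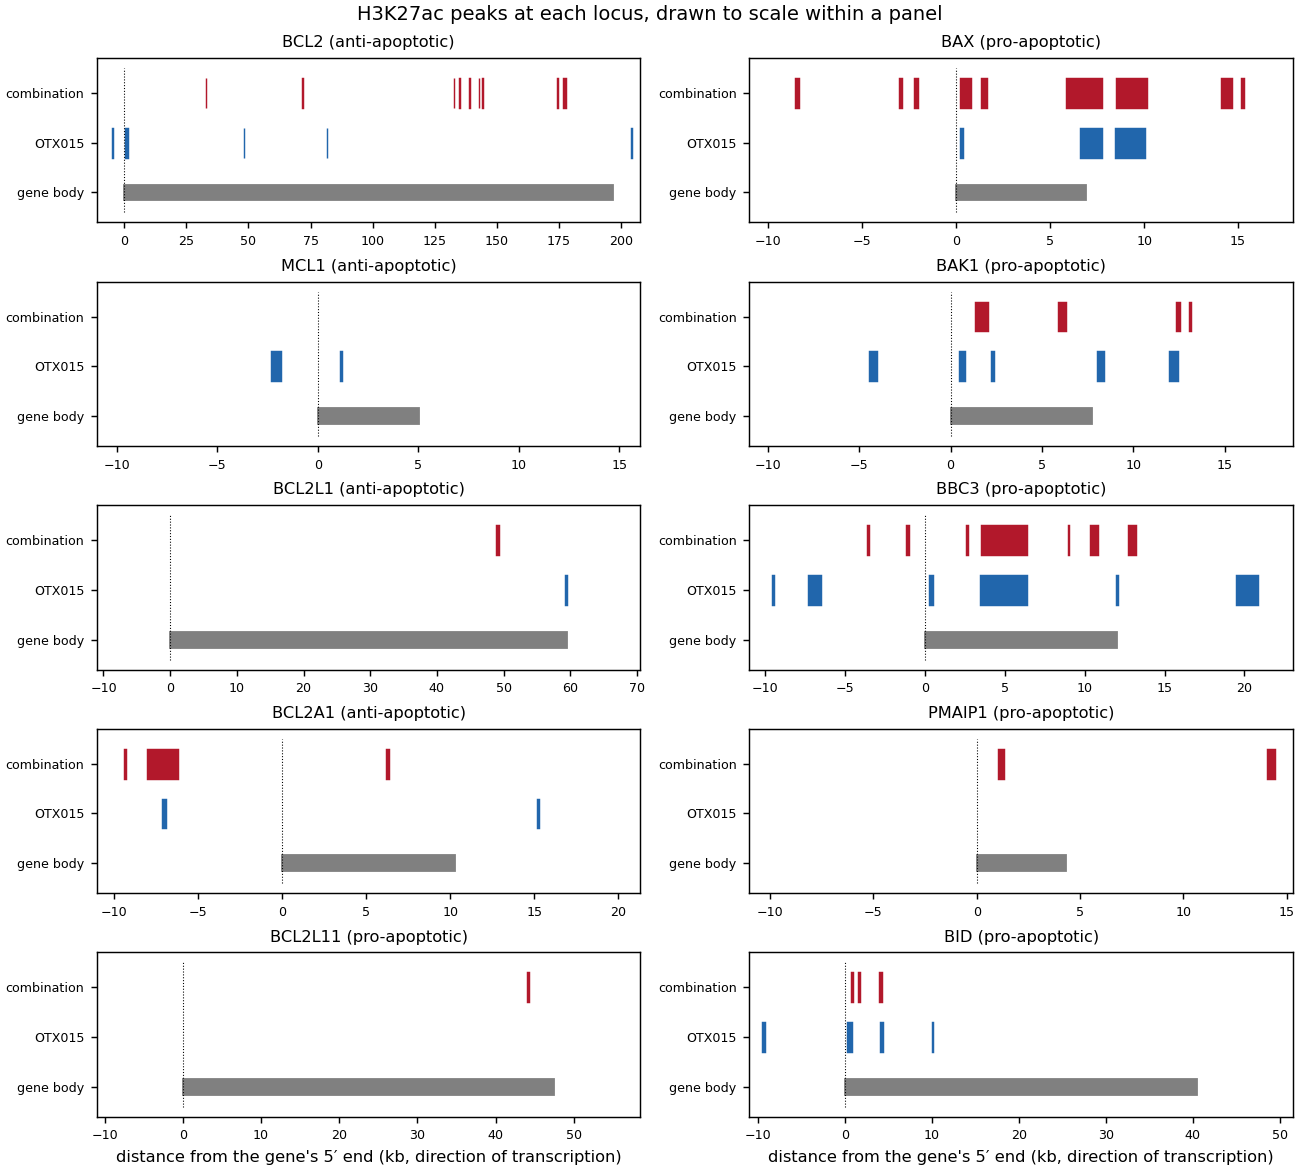
Peaks at each of the 10 loci by distance from the gene's 5′ end in kb, read in the direction of transcription, for the combination (red, upper row) and OTX015 (blue, middle row), with the gene body in grey and the 5′ end as a dotted line. The wide BBC3 block near 5 kb and the 3′ pair at BAX line up between rows, whereas the BCL2 peaks do not, with OTX015 at the 5′ end and most combination peaks beyond 133 kb.

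None of the other pro-apoptotic members had a peak of 1 kb or a −log10 q of 2. BAK1, the second pore former, had 1.52 kb in 4 peaks with the combination and 1.82 kb in 5 with OTX015 on chromosome 6, and 0.117 kb was common to both. An OTX015 peak of 332 bp lay 0.613 kb inside its 5′ end, where the nearest combination peak, of 724 bp, was centred at 1.68 kb. BID on chromosome 22 had 0.814 kb with the combination and 1.43 kb with OTX015. Both lists had a peak at its start region. The one with the combination, 215 bp wide, lay over 1 of the 5 start sites in the promoter table and did not reach the 5′ end, and the one with OTX015, 599 bp wide, lay over 3 of the 5 and did not reach the 5′ end either. Both lists also had a peak further inside the gene, at 4.06 kb with the combination and 4.24 kb with OTX015.

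BCL2L11 and PMAIP1, the BH3-only genes for BIM and NOXA, had peaks with the combination and none with OTX015. BCL2L11 had 1 peak of 197 bp, 44.2 kb from its 5′ end, and PMAIP1 had 0.541 kb in peaks of 303 and 371 bp, the second of which crosses the edge of the locus. The BCL2L11 peak and the 303 bp PMAIP1 peak stood at the lowest value of the combination list, 4.76 times background, and the 371 bp peak at 4.88. A peak of that enrichment would not have entered the OTX015 list, whose lowest was 6.54, so these gains cannot be told apart from the difference in depth.

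Set side by side, pro-apoptotic loci were more densely covered and kept more of their cover in common than anti-apoptotic loci, largely through BAX and BBC3. The 6 pro-apoptotic loci had 13.1 kb with the combination and 11.8 kb with OTX015, or 5.48% and 4.95% of their length. The 4 anti-apoptotic loci had 6.21 kb with the combination and 3.18 kb with OTX015, or 1.77% and 0.904% of their length. Bases under peaks of both lists made up 46.8% of the combination cover and 51.7% of the OTX015 cover at pro-apoptotic loci, against 3.53% and 6.89% at anti-apoptotic loci. The contrast rested on BAX and BBC3, which held 10.0 kb (76.6%) of the pro-apoptotic cover with the combination and 8.59 kb (72.5%) with OTX015. Of the 6.12 kb common to both lists at pro-apoptotic loci, 2872 bp lay in the wide BBC3 peak. Another 1136 and 1558 bp lay in the 3′ pair at BAX, whose downstream peaks cannot be given to BAX alone. Both genes lie on chromosome 19, which was covered to 3.52% with the combination and 2.64% with OTX015. Without them the other 4 pro-apoptotic loci had 3.07 kb with the combination and 3.25 kb with OTX015, 1.70% and 1.81% of their length, of which 14.0% and 13.3% were common to both lists.

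The summed gain in cover was larger at anti-apoptotic loci, but this order turned round in some other windows. Summed over anti-apoptotic loci, the combination exceeded OTX015 by 3.03 kb, with 3 members covered more and 1 less, and over pro-apoptotic loci by 1.25 kb, with 3 more and 3 less. In gene bodies only the sums were 2.46 kb for anti-apoptotic and 2.66 kb for pro-apoptotic members, with 50 kb either side 1.52 and 3.89 kb, and within 10 kb of the 5′ end 0.0760 and 0.930 kb. Without the bodies of other protein-coding genes the order stayed, at 3.03 and 0.583 kb. The medians over the loci were 0.926 kb for anti-apoptotic and −0.0525 kb for pro-apoptotic members. The pro-apoptotic sum was −1.53 kb without BAX and 2.60 kb without BBC3, and the anti-apoptotic sum 1.25 kb without BCL2A1 and 1.31 kb without BCL2. At the 5′ ends the count depended on the distance allowed. Peaks came within 1 kb of the 5′ end at 2 members with the combination (BAX and BID), where 15.3% of genes had one, and at 5 with OTX015 (BCL2, BAX, BAK1, BBC3 and BID), where 14.9% of genes had one. Within 2.5 kb the counts were 5 with the combination, where 21.9% of genes had a peak, and 6 with OTX015, where 19.6% had one.

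Requiring the same enrichment in both libraries turned the family picture round. When peaks had to reach 6.54 times background, the lowest enrichment of the OTX015 list, all 28 OTX015 peaks at the loci stayed and 1 combination peak did, the 1627 bp peak past the 3′ end of BAX. The combination then covered no member more, as it did 0.429% of all loci, and 8 less, as it did 50.2% of all loci. Since the OTX015 list cannot lose a peak at its own lowest value, the 8 are not particular to the family. The part of depth in the differences between the lists was not tested.

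**Figure D3:**
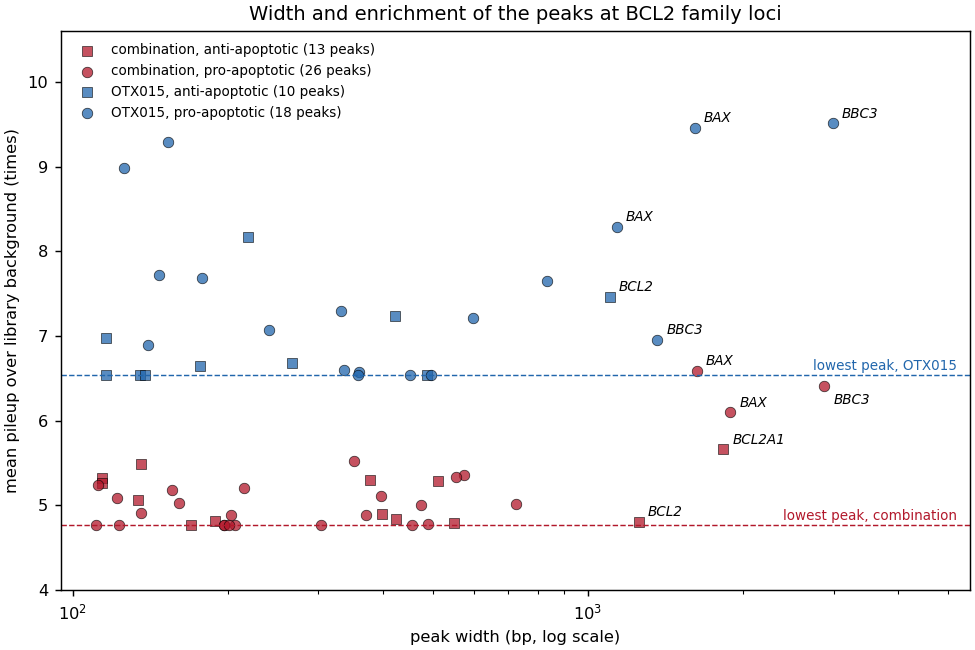
Width in bp (log axis) and mean enrichment over library background of each peak at the member loci, for the combination (red) and OTX015 (blue), with squares for anti-apoptotic and circles for pro-apoptotic genes and dashed lines at the lowest enrichment of each list. Only BAX among combination peaks reaches the OTX015 line of 6.54, and the widest peaks, at BBC3, are 2872 and 2982 bp.

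The member peaks with a −log10 q of at least 2 were wide ones at BAX, BBC3 and BCL2A1 and a pair of narrow OTX015 peaks at BBC3, 153 and 126 bp wide, which passed 97.8% and 97.0% of their list by −log10 p. Over all member peaks the median width was 303 bp with the combination and 334 bp with OTX015, against 339 and 303 bp over the whole lists. A −log10 q of at least 2 was reached by 4 of 39 combination peaks (1 at BCL2A1, 2 at BAX and 1 at BBC3), where 12.9% of the whole list did, and by 5 of 28 OTX015 peaks (2 at BAX and 3 at BBC3), where 7.54% did. Peaks of the other list met 8 of the 39 combination peaks (20.5%, exact 95% interval 9.30 to 36.5%) and 8 of the 28 OTX015 peaks (28.6%, 13.2 to 48.7%), against 21.0% and 33.3% over the whole lists. The intervals cover counting over peaks only. Inside gene bodies lay 25 of the 39 combination peaks and 14 of the 28 OTX015 peaks.

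The surroundings of the members differed in cover. BAX, BBC3, BAK1 and BCL2L1 lie on chromosomes 19, 6 and 20, which were densely covered in both lists (at least 0.75% of the chromosome). In the 10 Mb around BAX, 3.70% was covered with the combination and 2.29% with OTX015, a ratio of 1.62 beside 1.96 for the locus. Around BBC3 the ratio was 1.56 beside 0.763 for the locus, and around BAK1 2.08 beside 0.834. The BAX locus was thus covered more in surroundings that were also covered more, while the BBC3 and BAK1 loci were covered less in such surroundings. For these last genes the direction depended on the window. BAK1, at −0.302 kb over its locus, was at 0.67 kb in the gene body and 0.357 kb with 50 kb either side. BBC3, at −1.35 kb over its locus, was at 0.258 kb in the gene body. Around BCL2L1 cover was sparse despite its chromosome, 0.270% with the combination and 0.460% with OTX015, a ratio of 0.586 beside 1.49 for the locus. Around BCL2, on the sparsely covered chromosome 18, 0.218% was covered with the combination and 0.159% with OTX015, a ratio of 1.37 beside 1.88 for the locus. The part of the surroundings in these differences was not tested.

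**Figure D4:**
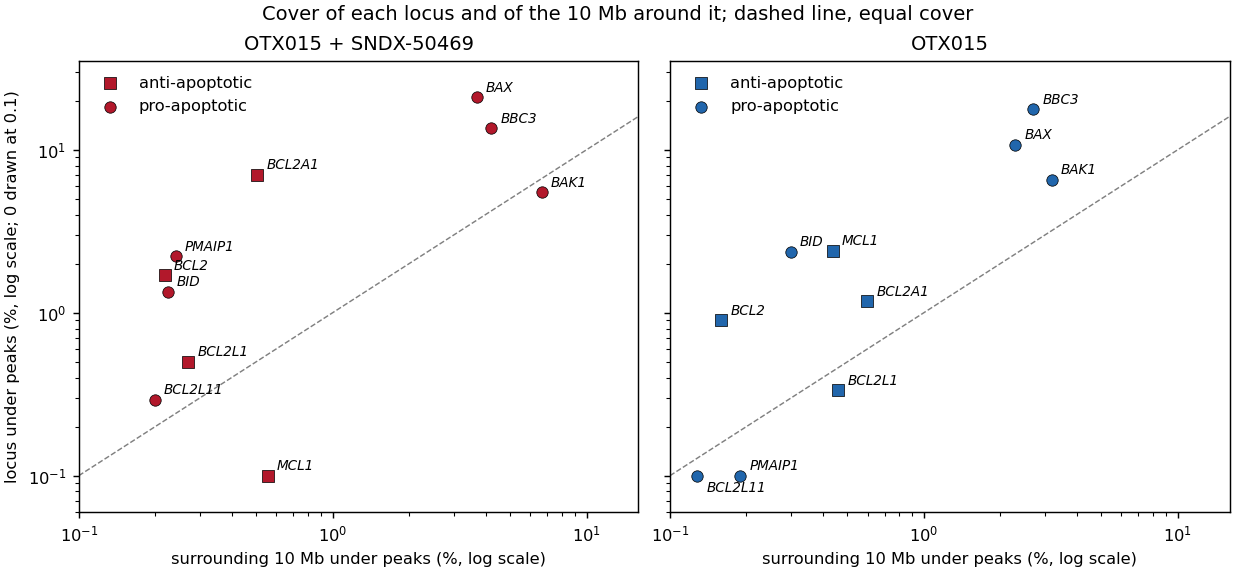
Percent of each locus under peaks against percent of the surrounding 10 Mb under peaks, both on log axes, for the combination (left) and OTX015 (right). Squares stand for anti-apoptotic and circles for pro-apoptotic genes, the dashed line marks equal cover, and loci without cover are drawn at 0.1. BAX and BBC3 lie above the line in both panels although their surroundings are among the most covered, and BAK1 falls below it with the combination.

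Among 43 other apoptosis genes, the largest gains were at death receptor genes and FOXO3 on densely covered chromosomes. Over the 6 lists 21 loci were covered more with the combination, 15 less and 7 had no cover in either list. Over all loci 38.7% were covered more and 26.6% less, and over loci with cover 59.3% and 40.7%. Of the 43, 5 were past the size of 2-fold and 1 kb upward and 1 downward, against 9.11% and 2.9% of all loci. Of the BCL2 family outside the 10 genes, BMF, a BH3-only gene that senses cytoskeletal stress, had the longest cover, 15.4 kb with the combination and 14.8 kb with OTX015, more than any of the 10 members in either list. BCL2L13, the neighbour of BID, was the 1 gene past the size downward, with 0.390 and 2.12 kb in the same order. BCL2L15 had 0.336 kb with the combination and 0.566 kb with OTX015. Of the other anti-apoptotic genes, BCL2L10 had 0.676 kb with the combination and no cover with OTX015, and BCL2L2 had 0.253 and 0.441 kb.

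Death receptors and their adaptors were covered more in 7 of 8 cases, against 38.7% of all loci and 59.3% of loci with cover. At 3 of the 7 the difference was small, 0.117 kb at TRADD, 0.142 kb at CFLAR and 0.409 kb at FAS, which are named here after their values were seen. TNFRSF10B and TNFRSF10A, which encode death receptors for TRAIL, lie on chromosome 8. That chromosome was covered to 17.9% with the combination and 8.08% with OTX015. TNFRSF10B had 20.3 kb with the combination and 9.38 kb with OTX015, TNFRSF10A 8.69 and 4.04 kb, and RIPK1 on chromosome 6 3.14 and 1.01 kb. CASP8, the initiator caspase that cleaves BID, had 2.63 kb with the combination and 0.502 kb with OTX015 on the sparsely covered chromosome 2. It was the 1 gene past the size among 12 apoptosome and caspase genes, of which 5 were covered more and 6 less, with VDAC1 at 0.145 and 0.527 kb and CASP9 at 0.417 and 0.111 kb. Inhibitors of apoptosis had little cover, 0.822 kb over 5 loci with the combination and 1.48 kb with OTX015, and none of the differences reached the size. Cover with the combination and with OTX015 was 0.139 and 0.515 kb at BIRC6, 0.364 and 0.696 kb at BIRC5, and 0.319 and 0.274 kb at BIRC3. Of 8 regulators of the family, FOXO3, a transcription factor that induces BIM and PUMA, had 20.4 kb with the combination and 2.28 kb with OTX015 on the dense chromosome 6. DDIT3, the stress factor CHOP, had 2.49 kb with the combination and 3.69 kb with OTX015.

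**Figure D5:**
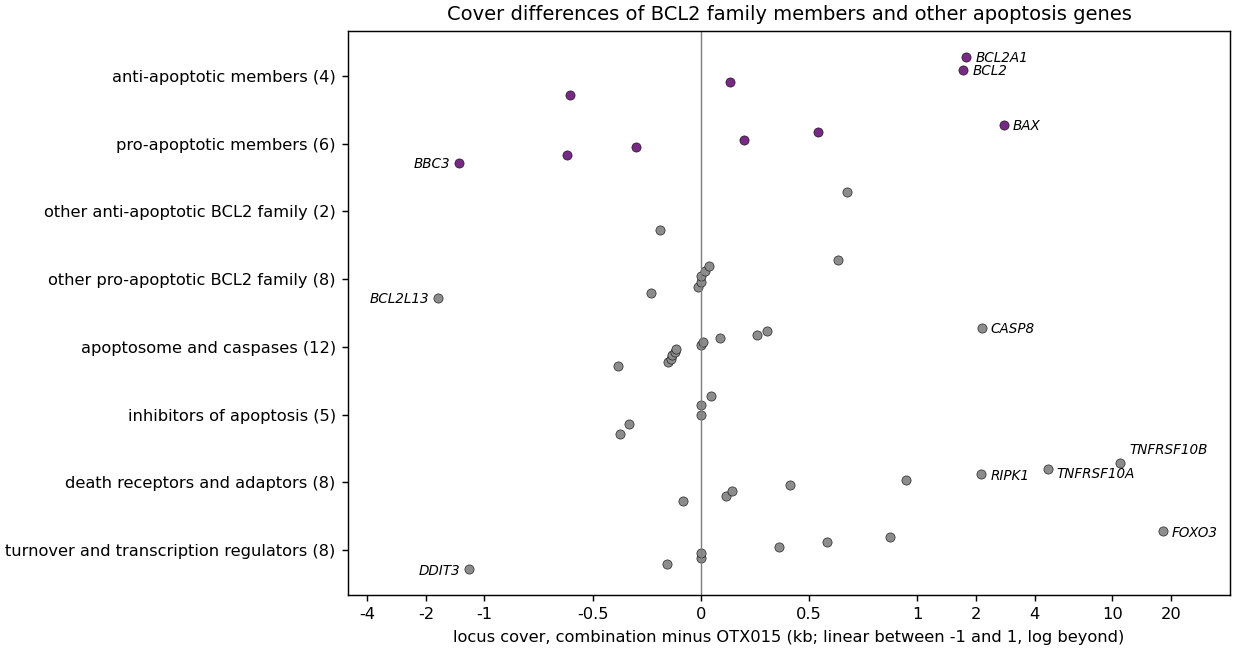
Difference in locus cover, combination minus OTX015, in kb (linear between −1 and 1, log beyond) for the 10 members (purple) and 43 other apoptosis genes (grey), by list, with genes that differ by at least 1 kb named. FOXO3, TNFRSF10B and TNFRSF10A lie furthest to the right, BCL2A1, BCL2 and BAX lead the members, and BBC3 and BCL2L13 lie furthest to the left.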

How the data were processed

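H3K27ac ChIP-seq was done on MOLM13 cells, with Tn5 tagmentation of the precipitated DNA per the labels, 1 ChIP library per treatment. The titles write H2K27Ac and the antibody label H3K27Ac, which was followed. The labels also hold input libraries, whose values were not used here. Per the submitters' processing notes the tools were bcl2fastq 2.17, Trimmomatic 0.33, Bowtie 1.1.2 and MACS2 2.1.0 on GRCh38. Whether the input entered peak calling is not given in the sources used here. For each ChIP library the authors deposited broad peaks with a score (checked against −log10 q only), a fold enrichment ratio of pileup over background averaged over the peak, a −log10 p and a −log10 q.

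The lists give no read numbers. The background of each library was solved from the fold and −log10 p of its lowest peaks (13553 with the combination and 14431 with OTX015) under a Poisson model with a pseudocount of 1, and folds were turned into pileup over that background. Gene bodies are RefSeq records of GRCh38.p14, whose outermost base on the 5′ side was taken as the 5′ end. Strand came from the RefSeq promoter table or, by symbol, from GENCODE v44, for 19675 of 20037 genes. No coordinate was converted. Exons and introns were not separated. Cover is the union of peaks, and overlap means at least 1 bp. With 1 library per treatment no test was made, and counts were read against all protein-coding loci.

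The members, gene lists and alternatives were chosen with earlier results of these data known. Named are all 10 members, genes whose body holds most of a member-locus peak, and up to 3 genes of each of 6 lists with the largest absolute difference, of which 1 is not reported here. Alternatives were stricter peaks, equal peak numbers, a common enrichment, other windows, other overlap rules and leaving out dense chromosomes. Simulated lists returned the cover they were built with in 200 of 200 runs, and the background likewise in 200 of 200. The tools were scipy 1.17.1, pandas 2.3.3, numpy 2.4.6 and matplotlib 3.10.9 under Python 3.11.15.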

Additional observations from a re-analysis of the deposited data

How the results depend on the processing

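Directions depended on which peaks were kept and on the window. The summed difference, combination minus OTX015, was 3.03 kb for anti-apoptotic and 1.25 kb for pro-apoptotic members. It was 1.83 and 0.380 kb when −log10 q had to reach 2, 0.0400 and −1.61 kb with equal numbers of peaks, and −3.18 and −10.2 kb at a common enrichment over background, where fewer combination peaks remain by construction. It was 1.52 and 3.89 kb with 50 kb either side. Within 10 kb of the 5′ end it was 0.0760 and 0.930 kb, and in gene bodies only 2.46 and 2.66 kb, so that in these 3 windows the pro-apoptotic gain was the larger. Without the bodies of other protein-coding genes the sums were 3.03 kb for anti-apoptotic and 0.583 kb for pro-apoptotic members. Without the densely covered chromosomes they were 2.90 and 0.119 kb, so in both settings the anti-apoptotic gain stayed the larger.

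The combination covered 6 members more and 4 less. With −log10 q of at least 2 these were 2 and 1, at a common enrichment 0 and 8. With equal numbers of peaks they were 2 and 6, near the 5′ end 3 and 5, in gene bodies only 8 and 2, and without dense chromosomes 4 and 2. Of these alternatives, shares over all loci are given only for the common enrichment (0.429% more and 50.2% less). The other counts therefore cannot be called particular to the members. Members with a peak near the 5′ end numbered 5 with the combination and 6 with OTX015 when 2.5 kb either side was used, and 0 in each list with −log10 q of at least 2. Of 70 values of single members, 11 changed sign, among them BCL2 (−0.699 kb with equal numbers of peaks, −1.24 kb near the 5′ end), BAX (−1.27 kb at a common enrichment), BBC3 (0.258 kb in the gene body) and BCL2A1, which fell to −0.357 kb at a common enrichment. BAK1 also turned, from −0.302 kb to 0.67 kb in the gene body and 0.357 kb with 50 kb either side. At the common enrichment the OTX015 list cannot lose a peak, so a difference can only fall there. The cause of the other sign changes was not tested. Counting only overlap of at least 50% of both peaks left 10.3% of combination and 14.3% of OTX015 member peaks shared. The shares of the whole lists under that rule are not given here.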

Other observations

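The widest peak near any member lay outside the 10 kb flanks, past the 3′ end of BCL2, and it was the same region in both lists. It spanned 5712 bp with the combination, chr18:63096594-63102305, and 6177 bp with OTX015, chr18:63096927-63103103, and ended 21.0 kb and 20.2 kb short of the gene. Its enrichment was 6.79 times background with the combination and 10.5 times with OTX015, and its −log10 q 3.20 and 3.63. It passed 99.3% of the peaks of each list by −log10 p. Between 10 and 50 kb from BCL2, 9.65 kb was covered with the combination and 9.44 kb with OTX015, more than within the locus itself in either list. The peak has not been tied to BCL2 by any measurement here.

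The same outer flanks of other members held less. MCL1, with no peak in its locus with the combination, had 1.79 kb there with the combination and 2.48 kb with OTX015. BBC3 had 3.91 and 3.51 kb, BAX 3.08 and 0.777 kb, and BAK1 2.67 and 2.01 kb, combination first. Most of the BBC3 and BAX peaks there, in both lists, lay in the bodies of other protein-coding genes. Such cover cannot be given to the members alone. BCL2L11 had no peak there in either list.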
